A study of Mus musculus with 25 samples.

Results

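Alveolar lipofibroblast-like cells were picked out of single-cell RNA-seq of sorted mouse lung cells by their unique molecular identifiers (UMIs), the tags that count single RNA molecules. A cell was a member when at least 3 of the 6 genes Tcf21, Wnt2, Slc7a10, Ces1d, Scube2 and Fgfr4 each had at least 1 UMI. Cells with 2 or more UMIs of Cthrc1, 3 or more of Pi16, Scara5 and Entpd2 in sum, 5 or more of Hhip, or 5 or more of Saa3 together with 2 or more of Lcn2 were left out, since these genes mark other fibroblasts. Of 13900 deposited barcodes, 12059 passed a filter of 200 to 7500 genes and at most 20% mitochondrial UMIs, and 3246 of those were chosen. The choice was thus made on measured values, and the levels of these genes in the chosen cells are a description with no test. Of 3794 cells with 3 or more rule genes, 548 (14.4%) fell to a limit, most of them (341) to that on Hhip. Among the chosen cells, 788 had exactly 3 rule genes and 1002 had all 6, while 1015 cells within the limits had 2 rule genes and lay just outside.

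Alveolar lipofibroblasts are resident mesenchymal cells of the alveolar wall that hold lipid droplets and lie close to type 2 epithelial cells. They store retinoids, lay down elastic fibers, and secrete growth factors and Wnt ligands to the epithelium beside them. Tcf21 is the transcription factor that marks the lineage, Wnt2 and Fgfr4 are a ligand and a receptor, Slc7a10 carries small neutral amino acids, Ces1d is a lipid-cleaving carboxylesterase, and Scube2 is a secreted protein that helps release Hedgehog ligands. Npnt, nephronectin, is an extracellular ligand of the integrin that contains Itga8. In GRCm38.p6 (RefSeq) these genes lie at chr10:22817263-22820143 (Tcf21), chr6:17985474-18032772 (Wnt2), chr7:35186095-35201116 (Slc7a10), chr8:93166072-93197804 (Ces1d), chr7:109798690-109865679 (Scube2), chr13:55152818-55168759 (Fgfr4) and chr3:132881745-132950291 (Npnt).

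All mice carried a tamoxifen-inducible Cre driven by the Col1a1 promoter and floxed Fas alleles (Col1a1-CreERT2;Fas fl/fl). Fas is the death receptor that triggers extrinsic apoptosis. Naive mice received no bleomycin, the others received intratracheal bleomycin and were studied at 3 or 6 weeks, and the sources used here do not give ages. The Fas-/- groups received tamoxifen and the Fas+/+ groups its corn oil vehicle. Deletion and tamoxifen are therefore 1 factor, and deletion is limited to cells with Col1a1 promoter activity. The sort kept lung cells that lacked the leukocyte, endothelial and epithelial surface markers CD45, CD31 and CD326. The single-cell data hold 1 library for each of the 5 conditions, each a pool of 4 mice, so conditions are compared without a test and intervals cover counting error only. The bulk RNA-seq data hold 20 libraries, 4 in each of 5 groups, with total counts of 11819700 to 25189096. The study's methods count each replicate as a single animal, while the labels give replicate numbers only. Some bulk libraries held both Xist, expressed from the inactive X chromosome, and the Y-linked Ddx3y. Week 3 Fas-/- replicates 1, 2 and 3 were among them (values below). Whether each bulk library came from 1 mouse is thus not settled here. The part of sex in bulk differences was not tested.

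The week labels of the 2 data types went against each other. Profiles were compared as the deviation of each gene from its mean over conditions, across 7897 genes in the chosen cells, as a description across genes that are not independent replicates. The naive single-cell library was most like the naive bulk group, with a Pearson r of 0.646. The library labelled week 3 Fas+/+ was most like the bulk week 6 Fas+/+ group (r = 0.579, against -0.389 with its own label), and the library labelled week 3 Fas-/- was most like the bulk week 6 Fas-/- group (0.419, against -0.158). The library labelled week 6 Fas+/+ was most like the bulk week 3 Fas+/+ group (0.582, against -0.45), and that labelled week 6 Fas-/- most like the bulk week 3 Fas-/- group (0.733, against -0.285). In each case the genotype was the same and the week the other. Of the 16 bulk libraries of bleomycin-instilled mice, 14 were most like a single-cell library of the other week and 1 like the library with its own label. The profibrotic marker Cthrc1 showed the same turn. Its mean bulk level was 44.5 CPM (counts scaled to a library total of 1000000) at week 3 and 3.92 at week 6 in Fas+/+ mice, while in all mesenchymal-like single cells it was 14.8 CPM in the library labelled week 3 Fas+/+ and 153 in that labelled week 6 Fas+/+. The study reports lung fibrosis that formed early after bleomycin and later resolved in Fas+/+ mice. The fall of bulk Cthrc1 between the weeks in Fas+/+ mice runs in that direction, and its rise between the single-cell labels runs the other way. The counts alone do not settle which data type carries the other's labels, and this was not tested. Single-cell libraries are therefore named as labelled, and no course over time is read from them. Bulk weeks are given as labelled too, and what is said of them below rests on those labels.

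**Figure D1:**
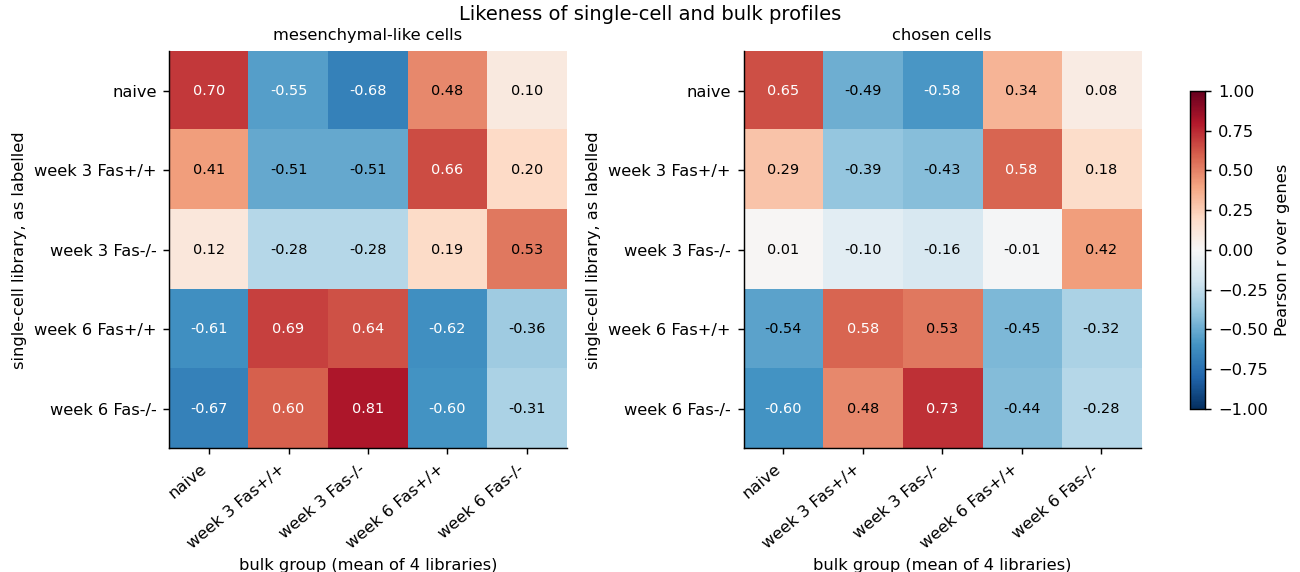
Pearson r across genes between each single-cell library (rows, as labelled) and each bulk group (columns, mean of 4 libraries), for all mesenchymal-like cells on the left and the chosen cells on the right, with color from -1 to 1. The highest r in each bleomycin row lies in the column of the other week and the same genotype, from 0.419 to 0.733 in the chosen cells.

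The libraries also shared cell barcodes. The naive library held 250 kept barcodes in common with the library labelled week 3 Fas-/- and 249 with that labelled week 6 Fas-/-. At these shared barcodes the naive library had 17.2-fold and 10.7-fold more UMIs, and the profiles under 1 barcode were more alike (median r of 0.55 and 0.57) than those under different barcodes (0.35 and 0.31). Of the chosen cells, 0, 2, 32, 13 and 32 had their barcode at 4-fold or more UMIs in another library (naive, then week 3 Fas+/+, week 3 Fas-/-, week 6 Fas+/+ and week 6 Fas-/- as labelled, an order kept for all values given in a row). Leaving those barcodes out of all kept cells, a check chosen after seeing the data, left the share of chosen cells at 32.5% in the library labelled week 3 Fas-/- and 27.1% in that labelled week 6 Fas-/-.

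Npnt, which the rule did not use, stood at 2238, 1978, 2203, 1878 and 2097 CPM, against 277 to 556 CPM in the other mesenchymal-like cells of the same libraries. After each cell was thinned to 3000 UMIs, 92.6% to 96.7% of chosen cells had an Npnt UMI, against 10.2% to 17.9% of endothelial-like cells, which should lack it. The naive library held only 9 endothelial-like cells after thinning. Its shares of them, part of the ranges here and below, thus rest on few cells. Slc7a10 set the chosen cells apart most, at 408, 267, 160, 210 and 209 CPM against 9.87 to 22.9 CPM in the other mesenchymal-like cells. Because the rule had picked cells by Slc7a10, that difference had to arise. Of 3226 genes at 50 CPM or more in the chosen cells, 85 were 2-fold or more above the other mesenchymal-like cells in all 5 libraries, which, with the cells chosen by expression, is a description too.

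The 20 genes with the largest such ratio held all 6 rule genes and Npnt. The others included Colq, the collagen tail of acetylcholinesterase (5.8-fold on CPM plus 10), Scn3a, a sodium channel subunit (5.32-fold), and the receptors Vipr2 (4.21-fold), Adra1a (4.13-fold) and Adrb3 (4.04-fold), which bind vasoactive intestinal peptide and catecholamines. Enzymes of small molecules were among them as well: Inmt, which methylates indoleamines (4.31-fold), Hsd11b1, which regenerates active glucocorticoid (4.05-fold), and Aldh1a1, which makes retinoic acid (3.99-fold). Further matrix genes among them were Mfap4, a microfibril-associated protein (4.47-fold), and the transmembrane collagen Col13a1 (4.26-fold).

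Markers of endothelial and epithelial cells and of leukocytes were low in the chosen cells, while some markers of other mesenchymal types were not. The 6 endothelial markers summed to 39.5, 65.9, 111, 153 and 75.5 CPM, with Ramp2 at 14.6 to 55.6 CPM and, in the library labelled week 3 Fas-/-, Pecam1 above it (42.2 against 26.8 CPM), and Cdh5 and Cldn5 were at 0 in the naive library. The 7 epithelial markers summed to 2.13 to 19.6 CPM and the 7 leukocyte markers to 2.85 to 10.4 CPM. Hemoglobin and other red cell genes summed to 165 CPM in the naive library and 4.64 to 23.2 CPM in the others. Smooth muscle markers, with Tagln holding the most UMIs, summed to 797, 645, 367, 1057 and 877 CPM. Pericyte markers summed to 133 to 328 CPM, mesothelial markers to 130 to 355 CPM and adventitial fibroblast markers to 1732, 1906, 1935, 2639 and 2362 CPM. The adventitial markers Clec3b and Dpt had mean levels over the libraries of 616 and 535 CPM in the chosen cells against 717 and 504 CPM in the other mesenchymal-like cells. The other adventitial markers were lower in the chosen cells. They were Dcn (346 against 3278 CPM), Col14a1 (62.8 against 240), Ly6a (38.4 against 223), Cygb (87.8 against 264), Igfbp4 (391 against 1012) and Ccl11 (37.4 against 117). Tagln had 494 against 1940 CPM. The part of these transcripts in the differences below was not tested.

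The chosen cells made up 43.8% of naive cells (95% Clopper-Pearson interval 39.8% to 47.8%), 264 of 603. Their share was 35.8% (34% to 37.7%) and 30.3% (28.5% to 32.1%) in the libraries labelled week 3 Fas+/+ and Fas-/-, or 954 of 2664 and 790 of 2608 cells. It was 16% (14.8% to 17.3%) and 24.4% (22.9% to 26%) in those labelled week 6 Fas+/+ and Fas-/-, or 519 of 3240 and 719 of 2944 cells. Among all kept cells the share was thus highest in the naive library and lowest in the library labelled week 6 Fas+/+. The order of the latter against the library labelled week 6 Fas-/- rested on the denominator. Endothelial-like cells, which the CD31 gate should remove, took 43.7% of cells in the library labelled week 6 Fas+/+ and 1.49% to 10.4% in the other 4. Among mesenchymal-like cells alone the chosen cells took 31.9% (29.6% to 34.2%) there and 30.4% (28.5% to 32.3%) in the library labelled week 6 Fas-/-, with overlapping intervals, and 49.3%, 44.4% and 36.4% in the naive library and those labelled week 3. A rule that counts genes with a UMI also depends on depth, and median UMIs of the chosen cells were 9900, 10899, 7815, 12435 and 11895. After thinning to 3000 UMIs, the shares were 39.6%, 29.8%, 26.8%, 13.7% and 21.9%, in the same order. The limits removed 4.69% of cells with 3 or more rule genes in the naive library, 9.57% and 7.82% in those labelled week 3, and 22% and 23.5% in those labelled week 6.

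**Figure D2:**
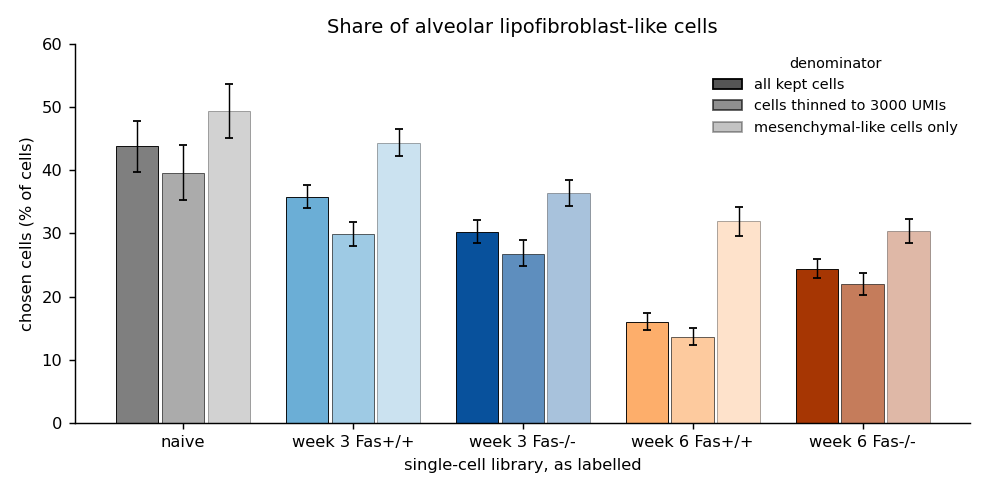
Share of alveolar lipofibroblast-like cells (% of cells) in each single-cell library, as labelled, over all kept cells, over cells thinned to 3000 UMIs, and over mesenchymal-like cells only. Bars start at 0 and lines are 95% Clopper-Pearson intervals; the library labelled week 6 Fas+/+ is lowest over all kept cells (16%) but not over mesenchymal-like cells (31.9%).

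Within the chosen cells, the profibrotic and inflammatory lists had medians above naive in all 4 libraries of bleomycin-instilled mice, and fibrillar collagens and elastic fiber genes stood above naive most in the 2 labelled week 6. In the library labelled week 3 Fas+/+ the medians of other collagens and matrix enzymes lay within 0.01 of naive on the log2 scale. UMIs were summed over the chosen cells of a library, and ratios were taken on log2 of CPM plus 10, which understates the change of low genes. A ratio of 2-fold or more was counted among genes with at least 20 UMIs over both libraries. By that measure 0.433% of 12017 genes were higher and 0.2% lower in the library labelled week 3 Fas+/+ than in naive, and 0.989% and 0.52% of 11531 genes in that labelled week 3 Fas-/-. The figures were 1.74% higher and 0.46% lower (of 11748 genes) for the library labelled week 6 Fas+/+ and 1.65% and 0.701% (of 11841) for that labelled week 6 Fas-/-. These 4 comparisons share the naive library, so their values are given side by side.

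Among fibrillar collagens, the main fibers of scar, 3 of 6 genes were 2-fold or more higher in the library labelled week 6 Fas+/+ and 1 of 6 in that labelled week 6 Fas-/-, with none past 2-fold in those labelled week 3. Col3a1, with the most UMIs of them, stood at 2044, 1892, 2800, 3876 and 4022 CPM. Col5a2, a minor fibril chain, had the largest ratio in both libraries labelled week 6 (log2 1.43 and 1.39), at 234, 266, 443, 645 and 629 CPM. The median log2 ratio of the list was 0.07, 0.52, 0.99 and 0.94 for the 4 libraries, where the median of all genes tested lay between -0.02 and -0.01. Of 14 other collagens, 4 were past 2-fold in each library labelled week 6, and among them the basement membrane chains Col4a1 (log2 1.01 and 1.04) and Col4a2 (1.27 and 1.24).

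Among elastic fiber genes, Ltbp2 stood out in every library. Ltbp2, a microfibril protein that binds fibulins and latent growth factor complexes, stood at 41.6 CPM in the naive library and 301, 611, 608 and 542 CPM in the others. Its UMIs were found in 10.2%, 32.5%, 58%, 42.3% and 50.1% of thinned chosen cells, against 0% to 10.6% of endothelial-like cells. Elastin itself (Eln) was at 1114, 1246, 2314, 3119 and 3088 CPM, and Mfap4, among the genes that set these cells apart, had no higher level than naive in 3 of the 4 libraries. Of 15 genes of this list tested, 1, 2, 3 and 2 were 2-fold or more higher. Among 20 matrix enzymes and inhibitors, 0, 4, 7 and 6 were higher. The inhibitor Timp1 had the largest ratio in those labelled week 6 (46.2, 94.6, 88.3, 714 and 453 CPM), with 88.6% and 80.3% of its UMIs there in the top 10% of cells, and the collagen-degrading protease Ctsk passed 2-fold in 3 libraries (20.3, 45.2, 105, 120 and 112 CPM).

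Of the profibrotic list, 3 of 16 genes were 2-fold or more higher in the library labelled week 3 Fas+/+, 5 of 15 in that labelled week 3 Fas-/- (with Tagln lower), and 10 and 9 of 15 in those labelled week 6 Fas+/+ and Fas-/-. Fibronectin (Fn1), with the most UMIs, stood at 1244, 1984, 2305, 3786 and 3512 CPM, and was found in 87.8% to 97% of thinned chosen cells. Sfrp1, a secreted Wnt modulator, was at 38.1, 122, 203, 427 and 329 CPM, and the transcription factor Runx1 at 9.6, 26.4, 42.5, 92.1 and 84.4 CPM. Both were lowest in the naive library and highest in that labelled week 6 Fas+/+. The largest ratio of all was that of Spp1, the secreted phosphoprotein osteopontin (chr5:104435111-104441053), at 2.13, 14.9, 28.5, 3421 and 1127 CPM. Spp1 was not spread evenly over the cells. The top 10% of chosen cells held 98.1% and 92.3% of its UMIs in the 2 libraries labelled week 6. After thinning, 31.8% and 35.1% of chosen cells there had a Spp1 UMI against 36.6% and 40.9% of endothelial-like cells, so the share is at background and only the few high cells stand above it. Postn, a matricellular protein of activated fibroblasts, stayed between 10.3 and 25.4 CPM in all 5 libraries.

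Of 21 acute-phase and inflammatory genes tested, 8, 6, 13 and 12 were 2-fold or more higher in the 4 libraries of bleomycin-instilled mice and none was lower by as much, with a median log2 ratio of 0.69, 0.59, 1.19 and 1.34. Haptoglobin (Hp), a plasma protein that binds hemoglobin, was at 3.56, 172, 327, 738 and 565 CPM, and its UMIs were found in 0.816%, 12.3%, 22.9%, 26.1% and 28.8% of thinned chosen cells against 0% to 5.7% of endothelial-like cells. The top 10% of cells held 80.9% to 91% of Hp UMIs after bleomycin. The complement gene C4b stood at 240, 585, 592, 561 and 623 CPM, past 2-fold in all 4. C3, the central complement protein, was at 542, 1104, 731, 1009 and 995 CPM. Cxcl14, a chemokine, went the other way in 3 of the 4, at 957 CPM in naive cells and 546, 690, 975 and 845 CPM in the others. Saa3 and Lcn2, of which high counts barred a cell, were nonetheless at 35.1 to 143 and 25.5 to 77.7 CPM after bleomycin, and at 2.85 CPM and 0 in the naive library.

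Of the lipid and retinoid lists, Lpl, G0s2 and Lrat passed 2-fold in at least 1 library. The median log2 ratio of the lipid list was 0.12, 0.09, 0.10 and 0.06, and that of the retinoid list -0.04, -0.17, -0.31 and -0.34. Lipoprotein lipase (Lpl), which frees fatty acids from lipoproteins, was higher in all 4, at 55.1, 138, 287, 366 and 413 CPM. Lpl is also a gene of endothelial-like cells here, 28.6% to 55.6% of which had a UMI after thinning against 5.71% to 34.9% of the chosen cells. Their share therefore gives no measure of background for Lpl. Only in the library labelled week 3 Fas-/- did the chosen cells pass it, by a margin within counting error (34.9% against 34.1%). The part of background in the Lpl values was not tested. The droplet protein Plin2 stayed at 139 to 199 CPM, and the lipase inhibitor G0s2 was at 1087, 924, 583, 577 and 508 CPM, past 2-fold lower in that labelled week 6 Fas-/- (log2 of -1.08). Lrat, which esterifies retinol for storage, stood at 260, 273, 163, 109 and 102 CPM, with a log2 ratio to naive of -1.18 and -1.27 in the 2 libraries labelled week 6. The rule genes, whose detection chose the cells, had medians of -0.21, -0.48, -0.43 and -0.50, and Slc7a10 was the lowest of them relative to naive in 3 of the 4 libraries.

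No lineage transcription factor of the list passed 2-fold, and of the niche ligands Igf1 and Vegfa did. Tcf21 stood at 946, 948, 818, 758 and 764 CPM and Tbx4 at 185, 188, 173, 162 and 177 CPM. Fgf10, a growth factor for the epithelium, was between 62.6 and 73.4 CPM in all 5 libraries. Igf1, insulin-like growth factor 1, was at 106, 124, 176, 285 and 266 CPM, past 2-fold in both libraries labelled week 6 (log2 of 1.34 and 1.24). Vegfa, a growth factor for endothelium, was at 217, 186, 101, 149 and 134 CPM, past 2-fold lower in that labelled week 3 Fas-/- (log2 of -1.03). Cdkn1a, the cell cycle inhibitor p21 and a target of p53, was at 41.3, 155, 194, 149 and 164 CPM, higher in all 4 libraries than in naive. Medians of the p53 target list were 0.42, 0.56, 0.58 and 0.54, those of the apoptosis list 0.10, 0.10, 0.18 and 0.24, and those of immediate early genes, which rise during tissue dissociation, -0.34, -0.13, -0.24 and -0.20. The 13 proliferation genes summed to 21.5 to 53.3 CPM, and Mki67 was at 0 to 2.95 CPM.

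**Figure D3:**
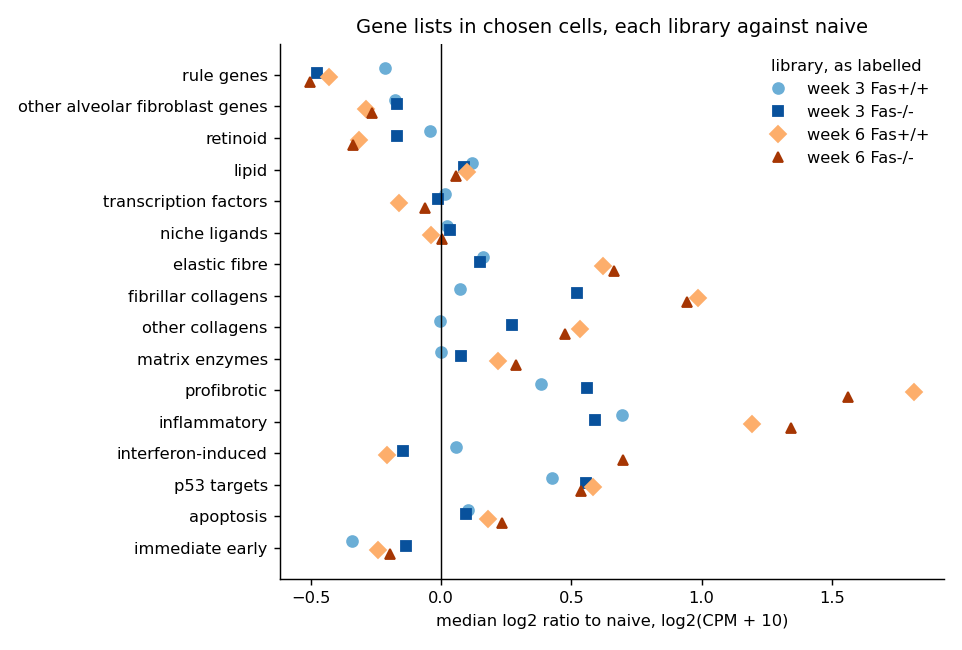
Median log2 ratio to the naive library, on log2 of CPM plus 10, of gene lists in the chosen cells, with 1 symbol for each library as labelled. Profibrotic genes lie at 1.82 and 1.56 in the libraries labelled week 6 and at 0.38 and 0.56 in those labelled week 3, and interferon-induced genes lie at 0.70 in the library labelled week 6 Fas-/- and between -0.21 and 0.06 in the others.

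Genes were also picked by size of ratio. Left out were those that moved alike in other lineages at a level not far below that in the chosen cells. Picked genes could thus still rise in other lineages. Spp1 did so there, from 0 CPM in the naive library to 342 CPM in that labelled week 6 Fas+/+. The naive library held only 11 cells of other lineages. In the library labelled week 3 Fas+/+ the higher of the picked genes were led by Gm26870, a predicted gene. It stood at 4.27 CPM in naive cells and 359 there (25.9-fold), with all of its UMIs in the top 10% of cells. Ager, a marker of type 1 epithelial cells, was 8.15-fold higher there, but 6.33% of thinned chosen cells against 9.85% of endothelial-like cells had a UMI, so its share was at background. Lower genes were led by Slurp1, a secreted epithelial protein, at 81.5, 1.98, 14, 9.85 and 22.1 CPM, with 0.816% of thinned naive cells positive and all UMIs in the top 10% of cells. With 4 rule genes asked for, Slurp1 in the library labelled week 6 Fas+/+ was above naive (log2 of 0.57 against -2.20). Plac9b was spread over more cells, at 62.6 CPM and 16.3% of thinned cells in the naive library against 13.3 CPM and 2.66% in that labelled week 3 Fas+/+. The ribosomal pseudogenes Rpl9-ps6 (32.4 to 6.04 CPM) and Rps12-ps3 (33.4 to 7.48 CPM) followed, and as near-copies of other genes their counts are uncertain. In the library labelled week 6 Fas+/+, Fst, follistatin, an inhibitor of activins, stood at 162 CPM against 1.78 in naive cells (14.6-fold), with 98.7% of its UMIs in the top 10% of cells. Lower there were Myl7 (27.7 to 0.532 CPM), Sfrp2 (41.3 to 5.99 CPM) and the hemoglobin gene Hbb-bt (19.6 to 0.932 CPM).

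**Figure D4:**
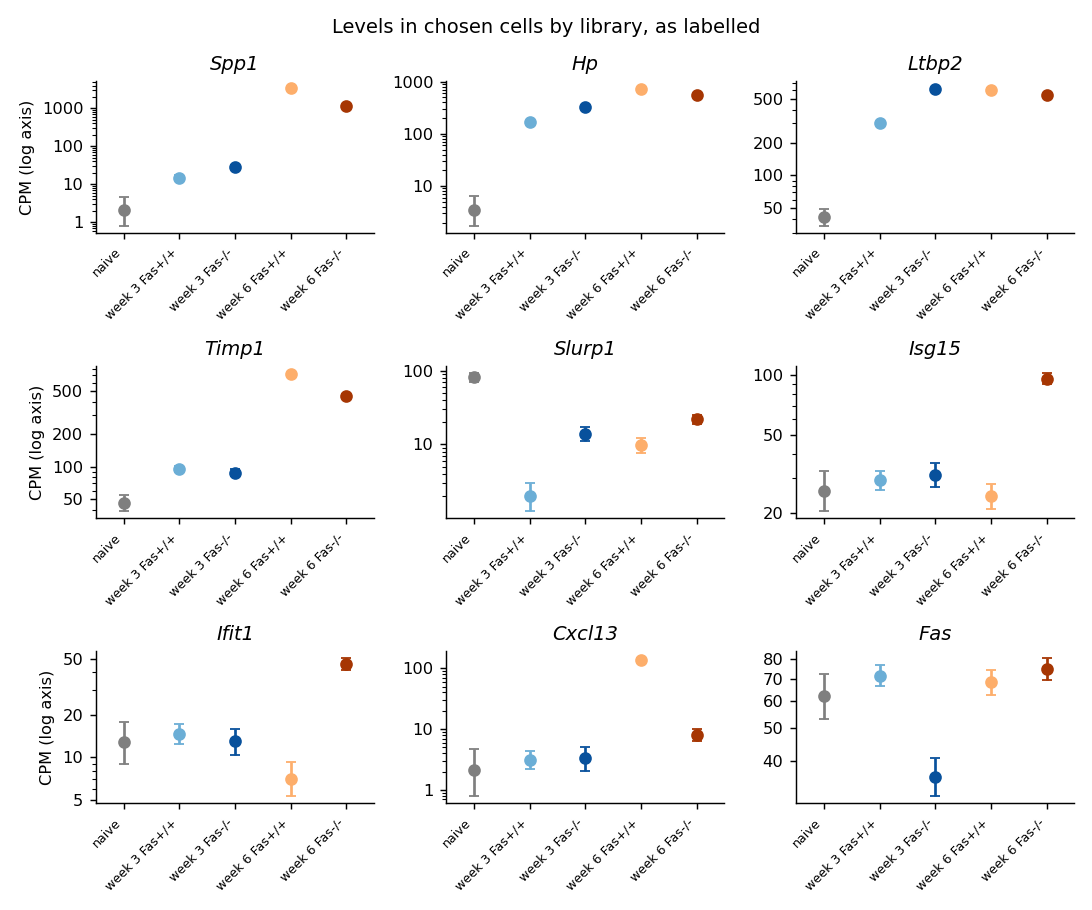
Level (CPM, log axis) of 9 genes in the chosen cells of each single-cell library as labelled, with 95% Poisson intervals for counting error. Spp1 and Cxcl13 are highest in the library labelled week 6 Fas+/+ (3421 and 137 CPM), Isg15 and Ifit1 in that labelled week 6 Fas-/- (96.3 and 45.8 CPM), and Fas is lowest in that labelled week 3 Fas-/- (35.9 CPM).

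Between genotypes few genes differed by 2-fold. Of 12311 genes, 0.179% were higher and 0.138% lower in the library labelled week 3 Fas-/- than in its Fas+/+ counterpart, and 0.179% and 0.0731% for the pair labelled week 6. In the pair labelled week 3, Pecam1, the endothelial CD31 (9.19 to 42.2 CPM), Nnat, an imprinted membrane protein (18.2 to 65.8 CPM), the pseudogene-like Rpl36a-ps1 (5.41 to 30.4 CPM) and Gm8797 (17.6 to 58.5 CPM), and the Y-linked Eif2s3y (14.1 to 42.6 CPM) were higher in Fas-/- cells. Hopx (112 to 27.7 CPM), the noncoding RNA Carmn (71.1 to 16.9 CPM), Gstp2 (21.7 to 1.21 CPM), Saa3 (114 to 35.1 CPM) and Slc25a25 (50.7 to 15.5 CPM) were lower. Xist, expressed from the inactive X chromosome, was at 1128 CPM in the Fas+/+ and 621 CPM in the Fas-/- library of this pair, and the part of the pools' sex in these differences was not tested. Pecam1 UMIs were in 11.9% of thinned chosen cells there against 89.4% of endothelial-like cells, and Hopx UMIs in 7.96% against 43.1%, both below the endothelial-like share. The 5 other endothelial markers did not pass 2-fold. Fibrillar collagens had a median log2 difference of 0.41 with none of 6 past 2-fold.

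In the pair labelled week 6, interferon-induced genes were higher in the Fas-/- library. Of 18 genes, 6 were past 2-fold and none was lower, with a median log2 difference of 0.70 where that of all genes was -0.01. Isg15, a ubiquitin-like protein, stood at 26, 29.3, 31.2, 24.2 and 96.3 CPM, and Ifit1, which binds foreign RNA, at 12.8, 14.7, 13, 7.06 and 45.8 CPM. Neither differed as much between the other 4 libraries. After thinning, 13% of chosen cells had an Isg15 UMI in the library labelled week 6 Fas-/- against 4.88% to 5.44% in the other 4, while endothelial-like cells were at 27.5% against 11.1% to 19.2%. For Ifit1 the shares were 10.9% against 2.09% to 3.88% in chosen cells and 15% against 8.13% to 11.1% in endothelial-like cells. Both genes were thus more widespread in endothelial-like cells and highest in the same library in both cell types. In bulk, which the choice of cells did not use, 7 of the 18 genes were higher in Fas-/- mice at week 3 and none was lower, against 0.165% of all genes, with a median log2 difference of 0.64 (edgeR). Without week 3 Fas+/+ replicate 2 or 3 no gene at all was called higher, and with the 2 groups fitted alone 5 of all genes were. At week 6 none of the 18 was called, 6 had an unadjusted p under 0.05 (8.07% of all genes did), and all 18 had a fitted log2 difference below 0 (median -0.27). All 7 leukocyte markers (median -1.80) and all 7 epithelial markers (-1.65) were below 0 there too, with none called. The part of such cells in the interferon values was not tested. The single-cell library labelled week 6 Fas-/- was the one most like the bulk week 3 Fas-/- group.

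The chemokines Cxcl10 (9.58 to 84.3 CPM) and Ccl2 (22 to 141 CPM) and the lysozyme Lyz2 (6.52 to 75.5 CPM) were also higher in the library labelled week 6 Fas-/-, with 99.8% to 100% of their UMIs there in the top 10% of cells. Cxcl13, a B cell chemokine (137 to 8.12 CPM), the cytokines Il11 (94.9 to 5.17 CPM) and Il6 (84.4 to 19.4 CPM), Inhba, an activin subunit (82 to 13.9 CPM), and Spp1 (3421 to 1127 CPM) were lower. These, too, came from few cells, since 92.3% to 100% of the UMIs of each lay in the top 10% of cells in both libraries. With 4 rule genes asked for in place of 3, Spp1 no longer differed (log2 of 0.09 against -1.59).

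The promoters of 3 of the genes higher in the library labelled week 6 Fas-/- are shown because they share letters of the interferon-stimulated response element, to which interferon-activated factors bind. Each runs from 250 bases before to 50 bases after the gene start, 5' to 3' on the gene's strand (RefSeq, GRCm38.p6), and capitals mark each match to GAAA, any 2 bases and GAAA again, searched on both strands. They lie at chr5:92348840-92349139 (minus strand, Cxcl10), chr19:34640639-34640938 (plus strand, Ifit1) and chr4:156200769-156201068 (minus strand, Isg15).

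Cxcl10: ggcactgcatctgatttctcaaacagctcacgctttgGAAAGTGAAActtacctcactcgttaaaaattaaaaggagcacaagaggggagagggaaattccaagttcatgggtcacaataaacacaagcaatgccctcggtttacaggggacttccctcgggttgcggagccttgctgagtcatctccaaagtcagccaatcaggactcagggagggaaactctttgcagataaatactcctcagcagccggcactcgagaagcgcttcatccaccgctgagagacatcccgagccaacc
Ifit1: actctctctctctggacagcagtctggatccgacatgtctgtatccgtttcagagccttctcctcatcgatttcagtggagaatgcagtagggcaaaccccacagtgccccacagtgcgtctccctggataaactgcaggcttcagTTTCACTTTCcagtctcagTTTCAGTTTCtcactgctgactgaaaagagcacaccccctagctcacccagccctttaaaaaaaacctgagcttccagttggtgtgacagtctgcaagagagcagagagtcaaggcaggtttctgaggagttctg
Isg15: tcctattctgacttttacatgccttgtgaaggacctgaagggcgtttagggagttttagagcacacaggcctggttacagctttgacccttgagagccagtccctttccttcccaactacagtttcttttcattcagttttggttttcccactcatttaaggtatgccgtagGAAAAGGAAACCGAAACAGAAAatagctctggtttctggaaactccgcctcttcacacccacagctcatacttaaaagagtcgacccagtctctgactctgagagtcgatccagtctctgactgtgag

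Cxcl10 held 1 match, Ifit1 held 2, and Isg15 held 3 that overlap. The letters were found in 943 of 27025 promoters of this length (3.49%) and in 11 of the 16 promoters found for the 18 interferon-induced genes. Lyz2, which had the largest ratio in this pair, held none. The 3 shown were chosen for holding a match. A match describes the sequence and is not a measured binding site.

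Fas itself (chr19:34290647-34327775) checks the deletion only in part, since the counts do not separate the floxed exon from the rest of the gene. In the chosen cells Fas stood at 62.2 CPM (95% Poisson interval 53.4 to 72.2) in the naive library, 71.4 (66.5 to 76.5) and 35.9 (31.4 to 40.7) in those labelled week 3 Fas+/+ and Fas-/-, and 68.3 (62.5 to 74.5) and 74.7 (69.3 to 80.4) in those labelled week 6. It was thus lower in the library labelled week 3 Fas-/- than in any other, with no overlap of intervals, and did not differ beyond counting error between the 2 labelled week 6. The share of thinned chosen cells with a Fas UMI was 14.7%, 18.2%, 8.94%, 16.6% and 19.3%, below the 38.2% to 49.4% of endothelial-like cells. In bulk, the week 3 libraries read 57.7, 34, 34.1 and 38.4 CPM of Fas in Fas+/+ mice and 42.3, 35.4, 34.4 and 64.9 CPM in Fas-/- mice, with overlap. At week 6 they read 26.1, 32.7, 39.7 and 27.1 CPM against 35.6, 46.6, 39.1 and 40.3 CPM, again with overlap, and naive libraries lay between 21.1 and 23.9 CPM. Neither genotype difference (log2 of 0.11 and 0.36) passed the test (adjusted p = 0.91 and 0.719 by edgeR).

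Among the chosen cells of 1 library, a few genes varied far more than the rest. Ranked by the variance of Pearson residuals over 9313 genes in at least 5% of cells, the 10 most variable over all 5 libraries were Igfbp5, Mt1, Crip1, Malat1, Dcn, Mfap4, Mmp3, Mgp, Gsn and Thbs1. Igfbp5, an insulin-like growth factor binding protein, had 92.5% to 96.8% of its UMIs in the top 10% of cells, and Dcn, decorin, abundant in adventitial fibroblasts, had 82.6% to 88%. Mt1, a stress-induced metallothionein, had 67.1% to 96.2%, and the stromelysin Mmp3 90.8% to 95.6%. Mfap4, by contrast, had 28.9% to 36.1%, and Malat1, a nuclear noncoding RNA that follows cell quality, 18.8% to 23.1%. The median gene had a residual variance of 1.09 to 1.18, where 1 is that of counting noise with the overdispersion assumed.

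The bulk libraries are samples that the rule did not use, and there the genes of alveolar fibroblasts were lower after bleomycin at week 3. The 32 genes looked at are the 6 rule genes, 17 further genes of alveolar fibroblasts and the 20 that set the chosen cells apart, some of which are the same. In bulk, fewer cells of a type and less RNA per cell cannot be told apart. Of the 32, 29 were lower and none higher in Fas+/+ mice at week 3 than in naive mice, with all 6 rule genes among them, against 19.2% of all 15773 genes lower and 22.1% higher (edgeR's quasi-likelihood test). In Fas-/- mice at week 3, 22 were lower and 1, Plin2, higher, against 14.8% and 17.2%. Their median log2 difference was -1.22 and -0.70, and that of all genes 0.01 and 0.02. Markers of other mesenchymal types were lower as well. In Fas+/+ mice at week 3 these were 5 of 6 pericyte markers (median -0.85), 4 of 6 smooth muscle markers (-1.08), 5 of 6 mesothelial markers (-0.998) and 4 of 8 adventitial markers (-0.46, with 2 higher). All 6 endothelial markers (median 4.56), all 7 epithelial markers (1.91) and 5 of 7 leukocyte markers (2.85) were higher. In Fas-/- mice at week 3, 5 of 6 pericyte (-0.85), all 6 smooth muscle (-0.84) and 4 of 6 mesothelial markers (-0.91) were lower. So were 4 of 8 adventitial markers (-0.34, with 1 higher). In the same mice 5 of 6 endothelial (3.92), all 7 epithelial (2.18) and 5 of 7 leukocyte markers (3.18) were higher. All 5 red cell markers were lower in both groups (-6.76 and -7.85). The part of such a change in cell makeup in the alveolar values was not tested.

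Slc7a10 fell the most of the rule genes at week 3. Its level was 322, 253, 286 and 286 CPM in naive mice, 143, 37.8, 32.1 and 55 CPM in Fas+/+ mice and 119, 89.4, 133 and 61.4 CPM in Fas-/- mice at week 3, and no library of either group reached the lowest naive value. The log2 difference from naive was -2.09 (SE 0.38, adjusted p = 0.000372) and -1.51 (SE 0.37, adjusted p = 0.00541). At week 6 Slc7a10 was at 212, 158, 237 and 132 CPM in Fas+/+ mice and 82.9, 109, 148 and 95.2 CPM in Fas-/- mice, with a log2 difference from naive of -0.63 (SE 0.36, adjusted p = 0.36) and -1.40 (SE 0.37, adjusted p = 0.0307). In Fas-/- mice at week 6, 3 rule genes were called lower than naive (Wnt2, Slc7a10 and Scube2). Only 1 was called without naive replicate 3 or Fas-/- replicate 2 or 4. It was 2 without naive replicate 1, 2 or 4 or Fas-/- replicate 1. Fas-/- libraries at week 6 overlapped those of Fas+/+ mice, and the genotype difference of -0.77 (SE 0.36) did not pass the test (adjusted p = 0.621 by edgeR, exact permutation p = 0.0571).

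Wnt2 was at 68.2, 61.7, 75.2 and 72.1 CPM in naive mice, 30.4, 28.2, 23.6 and 33.2 CPM in Fas+/+ mice and 48.3, 37.2, 48.9 and 39.2 CPM in Fas-/- mice at week 3. All 3 groups were thus apart, with Fas-/- mice between the other two. The genotype difference at week 3 was 0.59 (SE 0.15), with an exact two-sided permutation p of 0.0286, the smallest that 4 libraries against 4 can give, and an adjusted p of 0.134 over all genes by edgeR. Scube2 was lower than naive by the test in all 4 groups, but in Fas+/+ mice at week 6 (adjusted p = 0.0259 by edgeR) it no longer passed without naive replicate 1 or 3 or without week 6 Fas+/+ replicate 2, 3 or 4. Its mean was 514 ± 56.8 CPM (SD, n = 4) in naive mice, 174 ± 59.6 and 220 ± 51.7 CPM at week 3 (Fas+/+, then Fas-/-), and 290 ± 51.2 and 261 ± 42.2 CPM at week 6. Ces1d differed least from naive among the rule genes at week 3. Its mean was 577 ± 63.5 CPM in naive mice and 388 ± 67.7 CPM in Fas+/+ mice at week 3 (log2 of -0.57, adjusted p = 0.00467 by edgeR), against 526 ± 112 CPM in Fas-/- mice. Tcf21 was 280 ± 49.7 CPM in naive mice, 135 ± 50.8 and 189 ± 50 CPM at week 3, and 286 ± 37.9 and 275 ± 42.1 CPM at week 6, so its week 6 means lay within the naive spread.

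At week 6 fewer of the 32 genes were below naive. In Fas+/+ mice these were 3 (Scube2, Npnt and Scn3a), against 1.74% of all genes lower and 3.57% higher, with a median log2 difference of -0.30. In Fas-/- mice they were 7 (Wnt2, Slc7a10, Scube2, Enpep, Colq, Scn3a and Adrb3), against 2.81% and 3.66%, with a median of -0.34. None of the 32 was higher in either group. The count of 3 became 0 without naive replicate 1 or without week 6 Fas+/+ replicate 2 or 4, 1 without naive replicate 3 or 4 or week 6 Fas+/+ replicate 3, and 2 without naive replicate 2. The count of 7 became 2 without naive replicate 3, 3 without week 6 Fas-/- replicate 2 or 4, and 4 without naive replicate 1, 2 or 4 or week 6 Fas-/- replicate 1. Markers of other cell types differed from naive as well. In Fas+/+ mice at week 6, 6 of 7 epithelial markers (median log2 of 3.28) and 3 of 7 leukocyte markers (2.36) were higher and all 5 red cell markers (-5.26) lower, while none of the 6 endothelial markers passed the test (median 2.39). In Fas-/- mice 2 of 7 epithelial markers (1.59) were higher and all 5 red cell markers (-7.03) lower, and no endothelial (2.20) or leukocyte marker (-0.09) passed. Their part in the counts was not tested. Without the library highest in endothelial markers of each bleomycin group the counts were 5 and 12, with the 2 groups fitted alone 13 and 17, and with DESeq2 4 and 11.

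**Figure D5:**
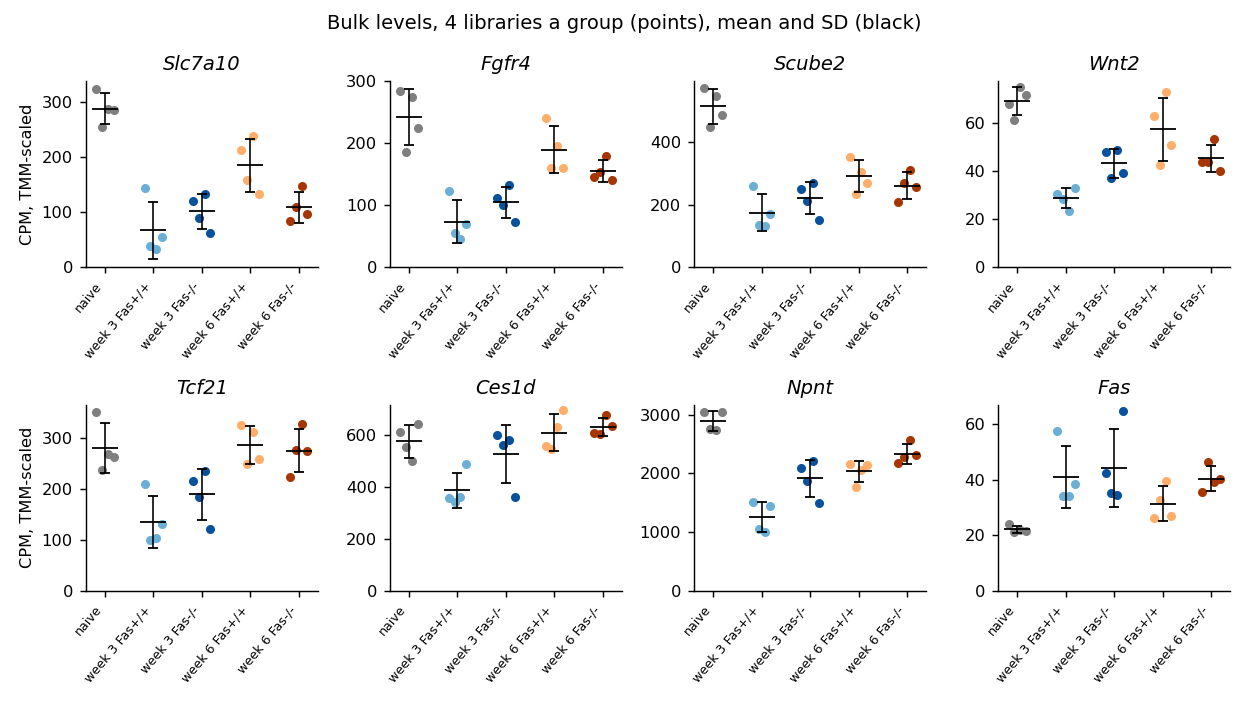
Bulk levels (CPM scaled by TMM, linear axis from 0) of the 6 rule genes, Npnt and Fas in each of the 4 libraries of 5 groups (points), with mean and SD (black). Slc7a10 falls from 253 to 322 CPM in naive mice to 32.1 to 143 CPM in Fas+/+ mice at week 3, and of the rule genes Ces1d falls the least at week 3.

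Between genotypes at week 3, all 32 genes had a fitted log2 difference above 0 (Fas-/- over Fas+/+), with a median of 0.50, but 2 passed the test, against 0.165% of all genes higher and 0.00634% lower. These were Adh1, an alcohol dehydrogenase that oxidizes retinol (209 to 382 CPM, log2 0.87, SE 0.11, adjusted p = 0.00782 by edgeR), and Nebl, a nebulin-like actin-binding protein (107 to 160 CPM, log2 0.59, adjusted p = 0.0436 by edgeR). With DESeq2 9 of the 32 passed, and with the 2 groups fitted alone 0 did. The count changed whichever library of the 2 groups was left out, and most without either of a pair of libraries. Week 3 Fas+/+ replicate 1 and Fas-/- replicate 4 had summed endothelial markers of 7350 and 6659 CPM, against 1847 to 2503 and 514 to 880 CPM in the others of their groups and 136 to 372 CPM in naive mice. Replicate 1 had the highest and replicate 4 the lowest Slc7a10, Tcf21, Scube2 and Fgfr4 of its group. Leaving out either one gave 16 genes higher, against 1.16% of all genes without Fas+/+ replicate 1 and 1.76% without Fas-/- replicate 4, and leaving out these and the highest library of each week 6 group gave 30 of 32, with all 6 rule genes, against 3.42% of all genes. Slc7a10 then differed by a log2 of 1.44 (adjusted p = 0.00258 by edgeR) and Tcf21 by 0.92 (adjusted p = 0.00267). Without week 3 Fas+/+ replicate 2 or 3 no gene of the 32 passed the test, without its replicate 4 there were 4, and without Fas-/- replicate 1, 2 or 3 there was 1. Endothelial markers of the remaining Fas+/+ libraries were still above those of the remaining Fas-/- libraries, and their part in the difference was not tested. Week 3 Fas+/+ replicate 1 and Fas-/- replicate 4 also stood apart in Xist. It was at 599 CPM in Fas+/+ replicate 1 against 3.95 to 74.2 CPM in the others of its group. In Fas-/- replicate 4 it was at 0.306 CPM against 71.5 to 309 CPM in the others. Those others also had 35.4 to 51.4 CPM of Ddx3y. The part of sex in the difference was not tested.

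At week 6 none of the 32 genes differed between genotypes by edgeR or DESeq2, with 1 at an unadjusted p under 0.05 (edgeR), where 8.07% of all genes were, and a median log2 difference of -0.06, against 0.0254% of all genes higher and 0.0254% lower. The change of the genotype difference between weeks, tested as an interaction in 37 genes, passed in none, with the lowest adjusted p at 0.118 for Adh1 (edgeR). For Wnt2 it was a log2 of -0.93, with an adjusted p of 0.159.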

How the data were processed

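Lin- lung cells were profiled by bulk and droplet single-cell RNA-seq. The authors deposited raw bulk counts per Ensembl gene, made with htseq-count after skewer trimming and Hisat2 alignment (GRCm38), and a normalized table that was not used here. For single cells the authors deposited UMI counts from Cell Ranger (3.0.2, per the file headers). The submitters' processing notes name HISAT2, HTSeq and DESeq2.

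The members, marker lists and gene lists were chosen with earlier results of these data known. UMIs of chosen cells were summed per library and given as CPM. Named were rule genes and list members at the extremes, the 20 genes with the largest ratio to other mesenchymal-like cells, the 10 most variable genes, and Fas. So were the 5 genes up and down with the largest ratio per comparison (at least 50 UMIs in the higher library, intervals apart). Genes moving alike in other lineages, at a level there not far below that in the chosen cells, were passed over. Cells were called endothelial-, epithelial- or leukocyte-like from 3 markers with a UMI. Scrublet (scanpy 1.11.5) called 0.113% to 0.882% of cells doublets, a rate too low to rely on, and 0, 13, 21, 30 and 8 chosen cells also met the call of another lineage. The sort had excluded doublets. Thinning to 3000 UMIs left out 110, 476, 764, 723 and 773 cells.

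Bulk counts of 47729 genes were fitted in edgeR 4.0.16 (R 4.3.3, filterByExpr, TMM, all 5 groups, quasi-likelihood F test, Benjamini-Hochberg over 15773 genes, called at 0.05), with DESeq2 1.42.0 as an alternative, and scipy 1.17.1 gave intervals. Scripts were tested on simulated data. The main fit did not pair samples by replicate number. A gene that the naming rule picked is not reported here.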

Additional observations from a re-analysis of the deposited data

Results flagged for a closer look

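Among 45 groups of 4 bulk libraries, 9 measures in each of 5 groups, 2 held a library far from the other 3, by a test that flags about 1 in 20 groups by chance. Both concerned Ces1d, the lipid-cleaving carboxylesterase. In Fas+/+ mice at week 3, replicate 4 stood at 489 CPM where the others read 344 to 363 CPM. In Fas-/- mice at week 3, replicate 4 stood at 360 CPM (359.9) where the others read 562 to 602 CPM, and this library also had 6659 CPM of summed endothelial markers. The part of those transcripts in the value was not tested.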

How the results depend on the processing

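The count of the 32 alveolar genes lower in Fas+/+ mice at week 3 than in naive mice was 29 under every setting run, and the counts lower in Fas-/- mice at week 3 ranged from 22 to 24 when 1 library was left out. The count lower in Fas+/+ mice at week 6 (3) was 5 without the 4 endothelial-high libraries, 13 with the 2 groups alone, and 0 to 4 with 1 library left out. That in Fas-/- mice at week 6 (7) was 11 with DESeq2, 12 without the endothelial-high libraries, 17 with the 2 groups alone, and 2 to 8 with 1 library left out. The count higher in Fas-/- than Fas+/+ mice at week 3 (2) was 9 with DESeq2, 1 with no filter, 30 without the endothelial-high libraries, 0 with the 2 groups alone, and 0 to 16 with 1 library left out. Whether the replicate numbers pair the libraries is not settled. Of 24 same-numbered pairs, 11 correlated above 0.1 (range -0.4 to 0.403) and 10 were closest to their own number. With the replicate block the count higher in Fas-/- mice at week 3 was 3. In single cells, shares of chosen cells were 38%, 28.7%, 20.3%, 12.3% and 18.3% with 4 rule genes asked for, 39.6%, 29.8%, 26.8%, 13.7% and 21.9% when thinned, 49.3%, 44.4%, 36.4%, 31.9% and 30.4% of mesenchymal-like cells, and, without limits, 39.6%, 32.9%, 20.5% and 31.9% in the 4 libraries after bleomycin. Without shared barcodes, a setting chosen after seeing the data, they were 32.5% and 27.1% in the Fas-/- libraries labelled week 3 and week 6. Genes past 2-fold higher and lower numbered 370 and 114, 425 and 232, 669 and 217, 643 and 334 over naive and 104 and 113, 70 and 110 between genotypes with a pseudocount of 1, and 12 and 5, 23 and 15, 46 and 8, 49 and 18, 5 and 3, 5 and 4 with one of 50. Between genotypes in the pair labelled week 6, 24 were lower with 4 rule genes asked for, and the higher share of called genes went from 71% to 48.9% there, 55.2% with means over cells and 38.9% with a pseudocount of 1. With 1 library left out, the log2 values that changed sign were those of Ces1d at week 3 in Fas-/- mice over naive (-0.205 to 0.0012, above 0 without Fas-/- replicate 4), Tcf21 at week 6 over naive in Fas+/+ mice (-0.0399 to 0.154) and in Fas-/- mice (-0.126 to 0.0928, and 0.00375 with the replicate block), Tcf21 at week 6 between genotypes (-0.155 to 0.0298), and Fas at week 3 between genotypes (-0.124 without Fas-/- replicate 4, to 0.318), none of them past the test. In single cells with 4 rule genes asked for, they were those of Slurp1 in the library labelled week 6 Fas+/+ over naive (0.57) and Spp1 between the genotypes labelled week 6 (0.0876). The causes were not tested. With 1 library per condition, counting intervals do not cover variation between mice.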
